A study of Mus musculus with 35 samples.

Results

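The response of control podocytes to bortezomib was followed in 12 of the 35 mice sequenced, 6 given bortezomib and 6 given the solvent DMSO. All 12 were Lmx1b+/lox mice, taken here to be the mice that the table marks as wild type, with 1 intact and 1 floxed allele of *Lmx1b*, a LIM homeodomain transcription factor of podocytes. The mice were chosen by this label alone, and 10659 of 33292 listed genes were compared, namely those that exceeded a TPM of 1 in all mice of either group. TPM gives transcripts per 1000000 and corrects for gene length. The other 23 mice belonged to a pair of knock-in lines with mutated LIM domains, and the comparison with them is given last.

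Besides the floxed allele, all of these mice carried a podocyte-specific rtTA transgene, tetO::Cre (LC-1) and mT/mG. The transgene provides the tetracycline-dependent activator in podocytes, doxycycline switches on Cre, and Cre both excises the floxed *Lmx1b* segment and turns the reporter from red to green. Doxycycline at 2 mg/ml in the drinking water was thus given to both groups, and so was the loss of 1 *Lmx1b* allele in the cells that were sorted. Bortezomib was injected intraperitoneally at 0.3 μg/g body weight every other day, and green podocytes of these young adult animals were collected by FACS on day 7. The sort was set on the green cells in which Cre had been active, but transcripts of other kidney cells were also present. The comparison asks what the drug does to podocytes that keep 1 intact *Lmx1b* allele.

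Bortezomib is a boronic acid dipeptide that blocks the proteasome, the barrel-shaped protease that degrades ubiquitinylated proteins, mainly at the chymotrypsin-like site of the subunit encoded by *Psmb5*. Cells in which the proteasome is blocked are known to raise the transcripts of proteasome subunits through the transcription factor NRF1 (*Nfe2l1*) and to induce heat shock chaperones through HSF1. Unfolded proteins in the endoplasmic reticulum and the integrated stress response act through ATF6, XBP1 and ATF4, and the drug is also known for its effect on NF-kappaB, whose inhibitor is a substrate of the proteasome. Podocytes are postmitotic cells that hold up the filtration barrier of the glomerulus and depend on a balanced turnover of proteins.

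The summed reads, recovered from the steps of the TPM values, ranged from 14038530 to 22683849 in DMSO-treated and from 16923838 to 23581098 in bortezomib-treated mice. All 10 podocyte markers passed the filter, and their summed level lay between 26899 and 42899 TPM after DMSO and between 26648 and 34725 TPM after bortezomib. A pair of mice stood apart from the rest. DMSO mouse 1 and bortezomib mouse 6 lay at opposite ends of the first principal component, which held 26.6% of the variance, and had the lowest mean correlations with the other mice (0.954 and 0.952). Most counts are therefore also given without both of them, a choice made after the data had been seen. The group means on this component were -9.93 (DMSO) and 9.93 (bortezomib), and each of these mice lay at the outer end of its group. Leaving out both thus tends to shrink the differences between the groups, and counts without them are not an independent check. These mouse numbers serve only as names and differ from the animal numbers in the submitters' labels.

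No gene passed an adjusted p under 0.05 in limma, that is 0% of the 10659 genes, and the lowest adjusted p was 0.169. At an unadjusted p under 0.05 stood 923 genes (8.66%), of which 491 genes (4.61%) were higher and 432 (4.05%) were lower after bortezomib. Without DMSO mouse 1 and bortezomib mouse 6 the number was 479, and without bortezomib mouse 1 it was 1423. Adding the level of *Xist* to the fit gave 452, and adding the animal number of the labels (46302 to 48986) gave 519. What either covariate stands for in these mice was not tested. The shares with all mice are the background for every count below, in which a gene called higher or lower is one with an unadjusted p under 0.05. The median log2 fold change over all genes was 0.01. Fold changes were computed on log2(TPM + 1), so those of weakly expressed genes come out too small. For 9999 genes (93.8%) the 95% interval of the difference lay within 2-fold in either direction, so a larger change of these genes lies outside the interval. The median half-width of that interval was 0.32. In the plot of fold change against p, the genes furthest out were few, with 28 higher and 27 lower by more than 2-fold at an unadjusted p under 0.05.

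**Figure D1:**
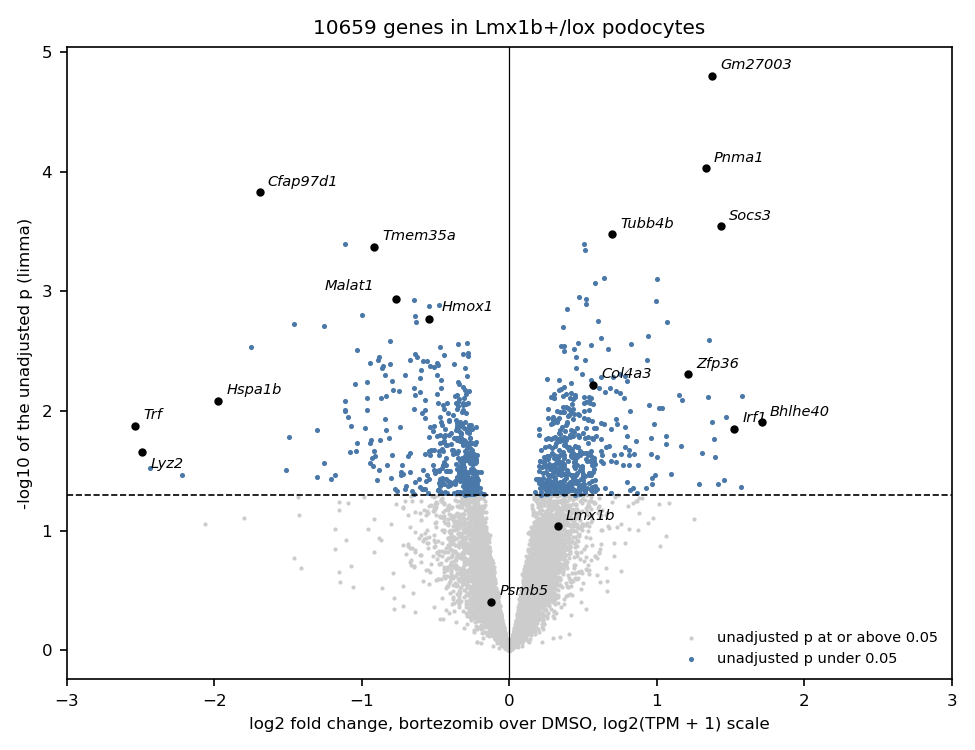
Each point is 1 of 10659 genes, with the log2 fold change of bortezomib over DMSO on the x axis and the -log10 of the unadjusted p from limma on the y axis. The dashed line marks an unadjusted p of 0.05, blue points lie above it, and *Gm27003* at 1.37 is the uppermost of the labelled genes, none of which passed the adjusted threshold.

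Complete separation of the groups was rare. In 15 genes (0.141% of those tested) every bortezomib-treated mouse lay above every DMSO-treated mouse, and in 11 (0.103%) below. *Gm27003*, a lncRNA gene on chromosome 2 of GRCm39 from 126517490 to 126525725 that shares its position with *Gabpb1*, ranged from 0.311 to 1.79 TPM (median 0.659) after DMSO and from 2.24 to 5.14 TPM (median 3.51) after bortezomib. Its log2 fold change was 1.37 (standard error 0.22, adjusted p = 0.169 in limma). *Pnma1*, a paraneoplastic antigen gene, ranged from 0.370 to 1.34 TPM (median 0.857) and from 1.57 to 6.22 TPM (median 3.78), again without overlap. Both genes are at the lower end of what was tested, and their reads may belong in part to the genes they overlap.

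Among the more abundant genes, *Gnl2*, a nucleolar GTPase of ribosome assembly, separated the groups. It ranged from 44.5 to 57.2 TPM (median 46.9) in DMSO-treated mice and from 59.0 to 88.7 TPM (median 69.4) in bortezomib-treated mice (log2 fold change 0.50, standard error 0.11). *Tpst1*, a tyrosyl protein sulfotransferase, and *Adgrl2*, a latrophilin receptor, also did not overlap, with log2 fold changes of 0.47 and 0.58. *Tubb4b*, a beta-tubulin, *H1f2*, a linker histone, *Mtrr*, the reductase that keeps methionine synthase active, and *Gas1*, a membrane protein of hedgehog signalling, completed the 10 genes with the lowest p on the higher side together with *Socs3*, and their log2 fold changes were 0.70, 0.52, 0.64 and 1.00. In each of these the groups overlapped by 1 mouse or more.

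On the lower side, *Cfap97d1*, a gene for a protein of the sperm flagellum that overlaps *Dusp3*, ranged from 3.07 to 8.43 TPM (median 5.31) after DMSO and from 0 to 2.78 TPM (median 1.12) after bortezomib. *Tmem35a*, a chaperone of acetylcholine receptors, had medians of 3.40 TPM after DMSO and 1.37 TPM after bortezomib, without overlap (log2 fold change -0.92, standard error 0.21). *Polr2k*, a small subunit shared by the RNA polymerases, and *Ccnq*, a cyclin partner of CDK10, were likewise lower in every bortezomib-treated mouse, with log2 fold changes of -0.65 and -0.48, as was the lncRNA *Gm21057* with -1.11. The nuclear lncRNA *Malat1* ranged from 927 to 2182 TPM (median 1388) after DMSO and from 675 to 1048 TPM (median 821) after bortezomib, and here the groups overlapped. *Cops7b* of the COP9 signalosome, which trims NEDD8 from cullin ligases, differed by -0.54 and *Pigw* of GPI anchor synthesis had medians of 4.40 and 1.62 TPM. For every gene without overlap named so far the exact permutation test gave p = 0.00216, the smallest value that 6 mice against 6 allow. Any gene without overlap has this p, so it adds nothing to the separation itself. These genes are also the extremes of 10659, and this p is not read as a result for any of them. *Gm27003* and *Pnma1* met the filter only through the bortezomib group, and *Cfap97d1*, *Tmem35a* and *Gm21057* only through the DMSO group. The direction of these genes is, in addition, partly set by the filter.

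The transcripts of the proteasome differed little between the groups, in either direction. Of the 14 genes for the 20S core, 7 were higher and 7 lower, the median log2 fold change was 0.01, and none had an unadjusted p under 0.05. Of the 19 genes for the 19S particle, which binds and unfolds ubiquitinylated proteins, 8 were higher with a median of -0.01. Every one of the 33 genes had a 95% interval inside 2-fold. *Psmb5*, for the subunit that bortezomib binds, ranged from 414 to 521 TPM (median 452) after DMSO and from 282 to 545 TPM (median 440.4) after bortezomib (log2 fold change -0.12, standard error 0.14), and the bortezomib-treated mice lay on both sides of the DMSO-treated ones. The genes of the other catalytic subunits differed by -0.26 (*Psmb6*, 443 and 365 TPM at the medians) and -0.06 (*Psmb7*), and those of the structural subunits *Psmb1* and *Psmb2* by 0.04 and 0.11.

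Only *Psmd3* of the 19S particle was higher at an unadjusted p under 0.05, with 77.5 to 116 TPM (median 89.8) and 97.4 to 111 TPM (median 108), all bortezomib-treated mice within the range of the others. *Nfe2l1*, the gene of NRF1, ranged from 483 to 809 TPM (median 653) and from 564 to 704 TPM (median 625) (log2 fold change -0.07, standard error 0.12); the activity of NRF1 depends on its processing, which transcript levels do not show. Without DMSO mouse 1 and bortezomib mouse 6, 12 of 14 core genes and 15 of 19 genes of the 19S particle were higher, with medians of 0.09 and 0.04. With the trend over gene length removed in each mouse, as described below, 11 of 14 and 14 of 19 were higher, with medians of 0.04 and 0.03. In that fit 2 core genes and 1 gene of the 19S particle were called higher. The share of higher members thus moved with the pair of mice and with the treatment of gene length. Of the 8 genes for immunoproteasome subunits and other activators 1 was higher, with a median of -0.14. Proteasome assembly factors and regulators such as *Vcp*, the segregase that extracts ubiquitinylated proteins (0.18), were higher in 12 of 23, and ubiquitin genes and conjugating enzymes in 13 of 22. In the latter list, where 0 genes were called without the pair of mice, *Ube2n*, a ubiquitin-conjugating enzyme, and *Rps27a* were lower by log2 fold changes of -0.22 and -0.28.

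Antioxidant response elements are the sites through which NRF1 and NRF2 act, and their core was searched for as TGACNNNGC on both strands from 250 bases before to 50 bases after the start of each gene. It was present in 2 of 11 promoters of the core, 4 of 16 of the 19S particle and 17.1% of the 8259 promoters of the tested genes. The promoter of *Psmb5* holds a match, shown here because this gene encodes the target of the drug, for the 100 bases before the start (RefSeq, GRCm38.p6, chr14:54617996-54618095, minus strand, 5′ to 3′) with the match in capitals.
Psmb5: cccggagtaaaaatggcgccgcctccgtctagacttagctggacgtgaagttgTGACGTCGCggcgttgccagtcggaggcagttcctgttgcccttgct
The other match among the core genes was in *Psmb6*. A match describes the sequence and does not show that the site is bound.

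Among heat shock genes, the best-known induced ones had lower levels after bortezomib. *Hspa1b*, an inducible HSP70 gene, ranged from 94.7 to 903 TPM (median 482) in DMSO-treated mice and from 19.3 to 167 TPM (median 126) in bortezomib-treated mice. Its log2 fold change was -1.97 (standard error 0.65, adjusted p = 0.56 in limma). DMSO mice 2, 3 and 5 stood at 760.3, 838 and 903 TPM, and the other 3 lay within or near the range of the bortezomib-treated mice. *Dnajb1*, an HSP40 cofactor, ranged from 65.0 to 970.2 TPM (median 252) and from 73.5 to 144 TPM (median 96.8) (log2 fold change -1.25, standard error 0.51), and *Hspa1a* from 88.0 to 1091 TPM (median 434) and from 70.4 to 203 TPM (median 135) (log2 fold change -1.30, standard error 0.57). All 3 had an unadjusted p under 0.05 in limma, but the exact permutation test gave p = 0.0519 for *Hspa1b*, 0.104 for *Dnajb1* and 0.113 for *Hspa1a*.

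*Hspa1a* and *Hspa1b* are near-identical neighbours, so reads may have been divided between them arbitrarily, and the value of either gene alone is uncertain. Their promoters are alike too, with 296 of 300 aligned bases in common. The stretch from 150 to 51 bases before the start is shown for both, since it holds a heat shock element core in the form GAANNTTC (capitals), with both genes on the minus strand of chromosome 17 (RefSeq, GRCm38.p6, chr17:34972207-34972306 and chr17:34959289-34959388, 5′ to 3′).
Hspa1a: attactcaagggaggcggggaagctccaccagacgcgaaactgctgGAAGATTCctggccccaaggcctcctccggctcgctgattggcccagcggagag
Hspa1b: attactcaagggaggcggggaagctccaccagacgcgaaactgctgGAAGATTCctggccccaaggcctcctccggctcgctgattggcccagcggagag
The window is identical in both genes. On both strands, GAANNTTC occurred in 12 of 22 heat shock promoters and in 6.7% of all promoters of tested genes, and the other arrangement, TTCNNGAA, in 6 of 22 and 8.02%. The first form was added after the data had been seen.

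The other members of the heat shock list had smaller differences of both signs. Of its 26 tested members 14 were higher, the median was 0.03, 4 were lower and 1 was higher at an unadjusted p under 0.05. The fourth lower gene was *Hspb1*, a small heat shock protein (-0.47), and the higher one *Dnajb4* (0.58). The chaperone genes *Hspa8*, *Hsp90aa1* and *Hsp90ab1* differed by -0.08, -0.15 and 0.01, and *Hsf1* by 0.14. Without the outlying pair of mice 5 of 26 were lower and 0 higher at an unadjusted p under 0.05.

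In the endoplasmic reticulum, 20 of 25 genes for chaperones and degradation factors were higher with a median of 0.12, against 52% of all genes tested. *Herpud1*, a component of the machinery that returns misfolded proteins to the cytosol, was the member with the lowest p and ranged from 98.8 to 288 TPM (median 199) and from 159.7 to 557 TPM (median 313) (log2 fold change 0.72, standard error 0.29, exact permutation test p = 0.0758). *Hspa5*, for the chaperone BiP, ranged from 1089 to 2305 TPM (median 1471) and from 873 to 3108 TPM (median 1988), with overlap on both sides. Without the outlying pair, 15 of 25 members were higher and none had an unadjusted p under 0.05.

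Of 17 genes of the ATF4 pathway and the integrated stress response, 10 were higher with a median of 0.31, and 5 of them were called higher. *Ppp1r15a* (GADD34), which directs the dephosphorylation of eIF2-alpha, ranged from 68.2 to 249 TPM (median 193) and from 205 to 1147 TPM (median 326) (log2 fold change 1.17, standard error 0.39). The highest value belonged to bortezomib mouse 6. *Atf3*, *Cebpb*, *Slc3a2* and *Eif2ak4*, named after their values had been seen, had log2 fold changes of 1.29, 0.73, 0.54 and 0.43. *Atf4* and *Ddit3* (CHOP), the central factor and its proapoptotic target, differed by 0.52 and 0.35 with unadjusted p-values of 0.089 and 0.126 in limma, and the biosynthetic targets *Asns* and *Mthfd2* had values of -0.33 and -0.21. Without the outlying pair, 3 of 17 were called higher and the median was 0.09.

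*Hmox1*, for heme oxygenase 1, had the lowest p of the oxidative stress and NRF2 list. It ranged from 49.1 to 71.2 TPM (median 58.1) after DMSO and from 29.1 to 55.7 TPM (median 40.5) after bortezomib (log2 fold change -0.54, standard error 0.14, exact permutation test p = 0.00866), and 5 of 6 bortezomib-treated mice lay below every DMSO-treated mouse. *Nfe2l2* (NRF2), named after its values had been seen, was higher by 0.43 at 82.6 and 102 TPM. The remaining genes of this list did not share a direction, with 11 of 27 higher and a median of -0.06. Among autophagy and lysosome genes 13 of 29 were higher. *Tax1bp1*, an autophagy receptor, did not overlap between the groups (medians 107 and 131 TPM), whereas *Sqstm1* (p62) differed by 0.12. No apoptosis or p53 target gene was called in either direction, and the member with the lowest p was *Bcl2l1*, for the survival factor BCL-XL, with -0.23 (unadjusted p = 0.108 in limma). *Mki67*, a proliferation marker, was listed at 0 to 0.516 TPM and not tested, and 6 of 13 cell cycle genes were higher.

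**Figure D2:**
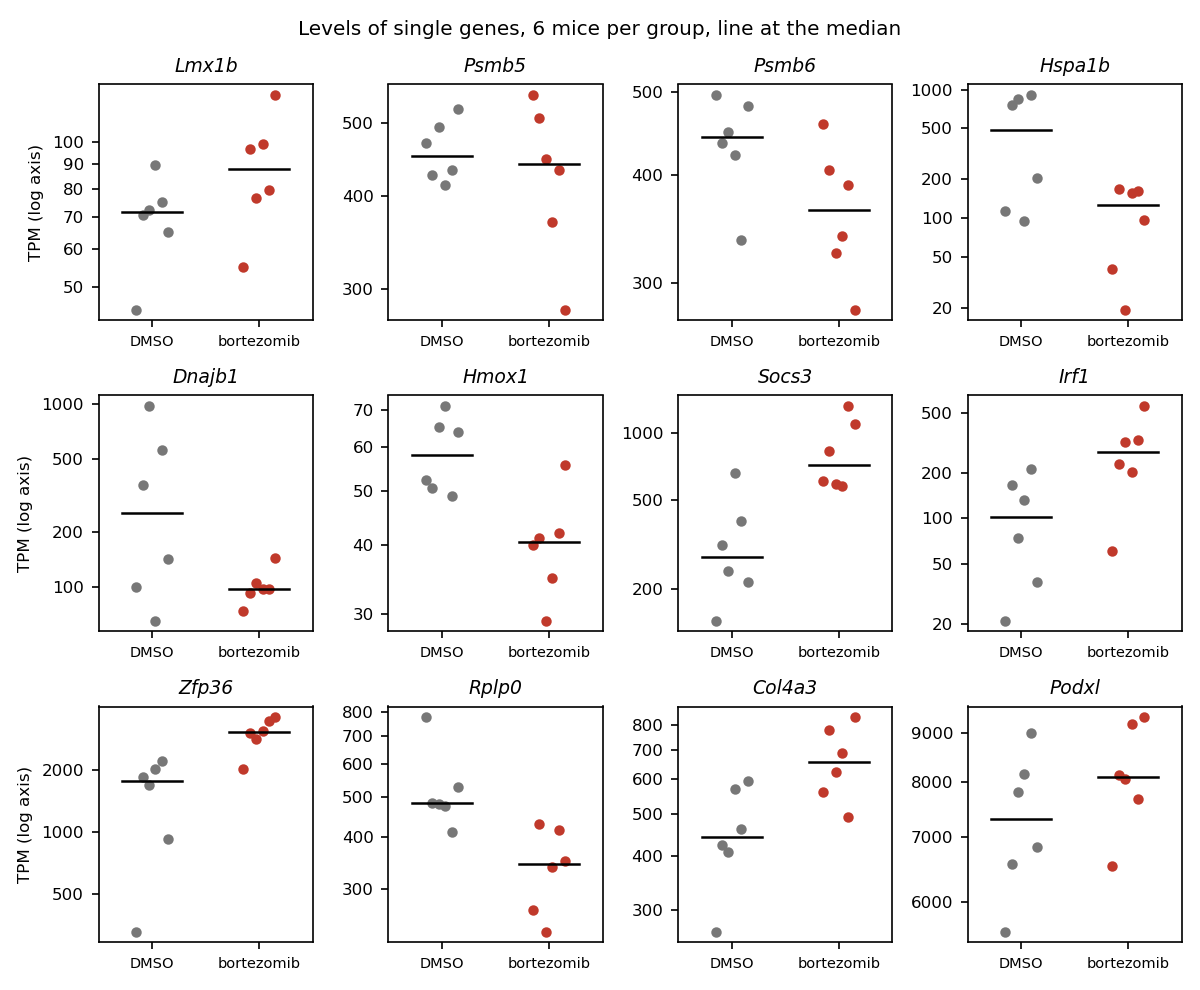
TPM on a log axis for 12 genes, with each point 1 mouse, grey for DMSO, red for bortezomib, and the line at the median of 6 mice. The groups overlap in all 12, *Hspa1b* is spread widely among DMSO-treated mice (94.7 to 903 TPM), and only 1 bortezomib-treated mouse reaches the DMSO range of *Hmox1*.

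The list with the highest median was that of immediate early genes, which are induced within minutes by growth factors, stress or handling of cells. Of 29 members tested 28 were higher after bortezomib, the median log2 fold change was 0.77, and 12 were called higher against 4.61% of all genes. *Jund* had the lowest p (706 to 1313 TPM (median 1074) and 1257 to 1949 TPM (median 1559), log2 fold change 0.55, standard error 0.16). *Zfp36*, which encodes an mRNA-destabilizing protein and was named after its values had been seen, ranged from 329 to 2229 TPM (median 1771) and from 2019 to 3618 TPM (median 3055) (log2 fold change 1.21, standard error 0.37), with 5 of 6 bortezomib-treated mice above every DMSO-treated mouse. *Nr4a1*, an orphan nuclear receptor, stood at 946 and 2233 TPM at the medians and *Klf4* at 14.2 and 29.3 TPM. *Fos*, *Jun* and *Egr1* had log2 fold changes of 0.74, 0.88 and 0.67 with no unadjusted p under 0.05. Not one of the 29 members separated the groups completely.

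By mouse, the median deviation of the list from the mean of all 12 mice ranged from -1.87 to 0.26 (median -0.05) after DMSO and from -0.39 to 1.05 (median 0.42) after bortezomib. The lowest values belonged to DMSO mice 1 and 6, with -1.87 and -0.98, and the highest to bortezomib mouse 6 with 1.05. Without DMSO mouse 1 and bortezomib mouse 6, 25 of 29 members were still higher, but 6 were called higher (background 2.27%) and the median was 0.39. The time from the injection to the sorting of each mouse was not used here, and the part of tissue handling was not tested.

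**Figure D3:**
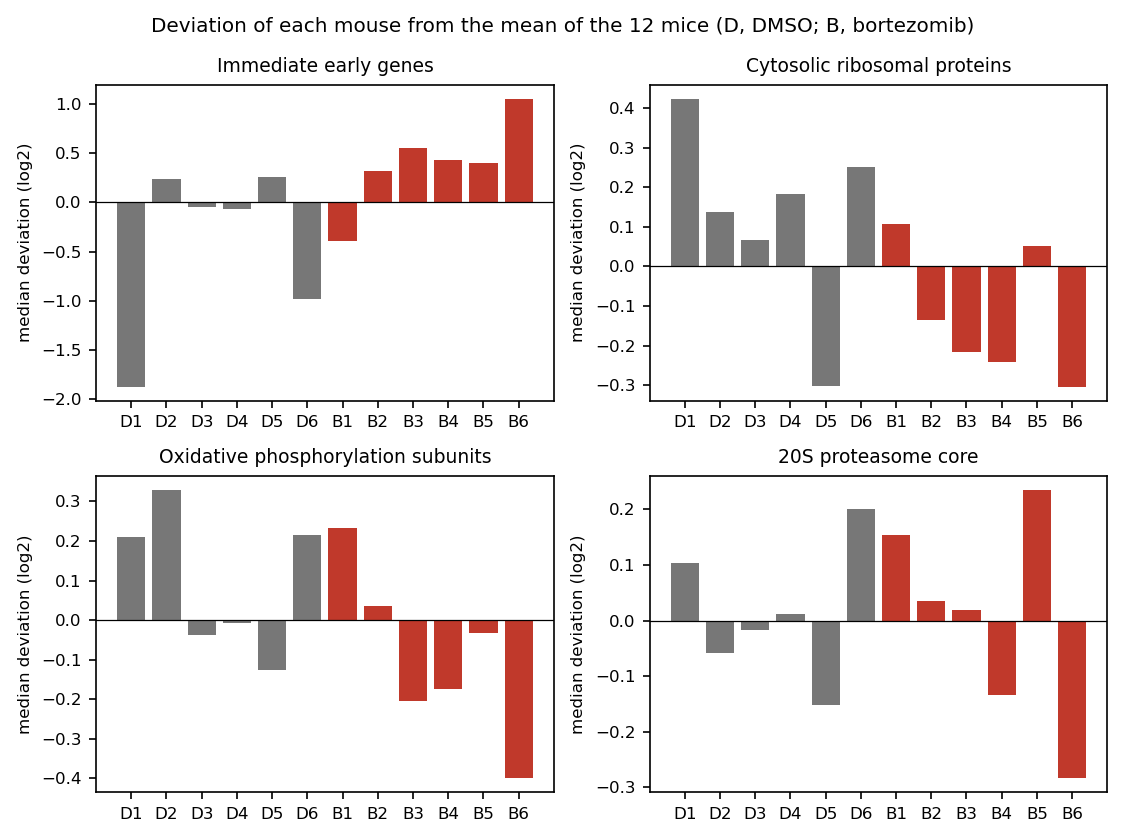
Bars give, for each of the 12 mice, the median deviation of the members of a list from their mean over all mice on the log2(TPM + 1) scale, grey for DMSO (D) and red for bortezomib (B), with a separate y axis for each list. Immediate early genes run from -1.87 in D1 to 1.05 in B6, and the 20S core has both signs in both groups.

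*Socs3*, which is induced by cytokines of the IL-6 family and shuts off JAK-STAT3 signalling, ranged from 145 to 661 TPM (median 278) after DMSO and from 579 to 1319.8 TPM (median 723) after bortezomib, where 1 DMSO-treated mouse reached into the other group. The exact permutation test gave p = 0.00866, and without the outlying pair of mice the log2 fold change was 1.14. In the JAK-STAT list 16 of 24 genes were higher, 3 were called higher and 1 lower, with a median of 0.10. Without the pair of mice the median was 0.01, 1 was called higher and 0 lower. NF-kappaB genes were higher in 14 of 16, with 6 called higher and a median of 0.46. These were *Nfkbiz*, *Rel*, *Tnfaip3*, *Bcl3*, *Ier3* and *Cxcl10*, of which *Tnfaip3*, the deubiquitinase A20 that restrains the pathway, differed most (3.40 to 70.9 TPM (median 35.6) and 11.7 to 271 TPM (median 98.2)). Without the pair of mice 2 of 16 were called and the median was 0.21.

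*Irf1*, a transcription factor shared by the NF-kappaB and interferon pathways, ranged from 21.0 to 210.5 TPM (median 103) and from 61.0 to 550.5 TPM (median 273) (log2 fold change 1.52, standard error 0.55), and 4 of 6 bortezomib-treated mice exceeded all DMSO-treated ones. The exact permutation test gave p = 0.0541 for *Irf1*, 0.108 for *Tnfaip3*, 0.0541 for *Rel* and 0.104 for *Atf3*, so these calls were not met by that test. Of 31 interferon-induced genes tested, 16 were higher with a median of 0.00, the guanylate-binding protein gene *Gbp2* with 0.45 and *Isg15* with -0.46. Of the interferon list, 3 were called higher and 1 lower, against 1 and 0 without the pair of mice. *Cebpd*, an acute phase transcription factor, ranged from 5.78 to 25.7 TPM (median 13.5) and from 13.8 to 222 TPM (median 31.5), the highest value again in bortezomib mouse 6.

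The highest log2 fold change among genes with an unadjusted p under 0.05 belonged to *Bhlhe40*, a repressor of the circadian clock (6.82 to 78.8 TPM (median 21.4) and 16.9 to 317 TPM (median 84.4), log2 fold change 1.71, standard error 0.61). Clock genes were higher in 13 of 18 with a median of 0.37. *Per1* and *Cry2* of the repressor arm were called higher with 0.51 and 1.02, the output gene *Dbp* had 1.06, and *Bmal1* and *Npas2* of the activator arm had -0.17 and -0.44. Without the pair of mice the median of the list was 0.21 and 2 of 18 were called higher. The hour of collection was not used here and its part was not tested. Glucocorticoid-induced genes, which also include *Per1*, were higher in 8 of 15 with 1 called in each direction.

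Lower levels were spread over the genes for ribosomes and mitochondria. Of 78 genes for cytosolic ribosomal proteins 74 were lower, 31 of them were called lower against 4.05% of all genes, and the median log2 fold change was -0.24. The difference was small per gene, all 78 having a 95% interval inside 2-fold. *Rplp0*, for a protein of the ribosomal stalk, ranged from 411 to 779 TPM (median 482) and from 236 to 429.9 TPM (median 344) (log2 fold change -0.64, standard error 0.17). Nuclear genes for subunits of oxidative phosphorylation were lower in 72 of 75 with 13 called lower and a median of -0.19, among them *Atp5mc2* of the ATP synthase ring (51.8 to 76.2 TPM (median 59.8) and 36.1 to 59.7 TPM (median 48.8)). Many ribosomal protein genes have processed pseudogenes, which can divide their reads. Without the pair of mice, 2 ribosomal and 0 oxidative phosphorylation genes were called lower, against a background of 2.19%, and the medians were -0.15 and -0.11.

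Both lists consist of short genes, and the fold changes moved with gene length. The tested genes were divided into 5 bins by length, and the median log2 fold change was -0.10 in the bin of the shortest genes (101 to 2395 bases), then -0.03, 0.02 and 0.05, and 0.09 in that of the longest (7560 bases and above). The shortest bin held 9.52% of genes called lower and the longest 0.985%. Among single mice the short genes deviated by 0.20 in DMSO mouse 1 and by -0.22 in bortezomib mouse 6, the extremes of the 12. With the length trend of each mouse removed, an alternative chosen after seeing the data, 17 ribosomal and 5 oxidative phosphorylation genes were called lower, with medians of -0.16 and -0.11. Over all 10659 genes this removal left 461 called higher and 419 called lower. For immediate early genes the same step left 13 of 29 called higher and a median of 0.83. The summed level of the transcripts of the mitochondrial genome ranged from 16145 to 45283 TPM (median 24698) after DMSO and from 14410.3 to 24629.8 TPM (median 19864) after bortezomib. It was highest in DMSO mice 1 and 2, in which the oxidative phosphorylation list deviated by 0.21 and 0.33, and lowest in bortezomib mouse 6, in which the list deviated by -0.40. The part of RNA quality in these lists was not tested.

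**Figure D4:**
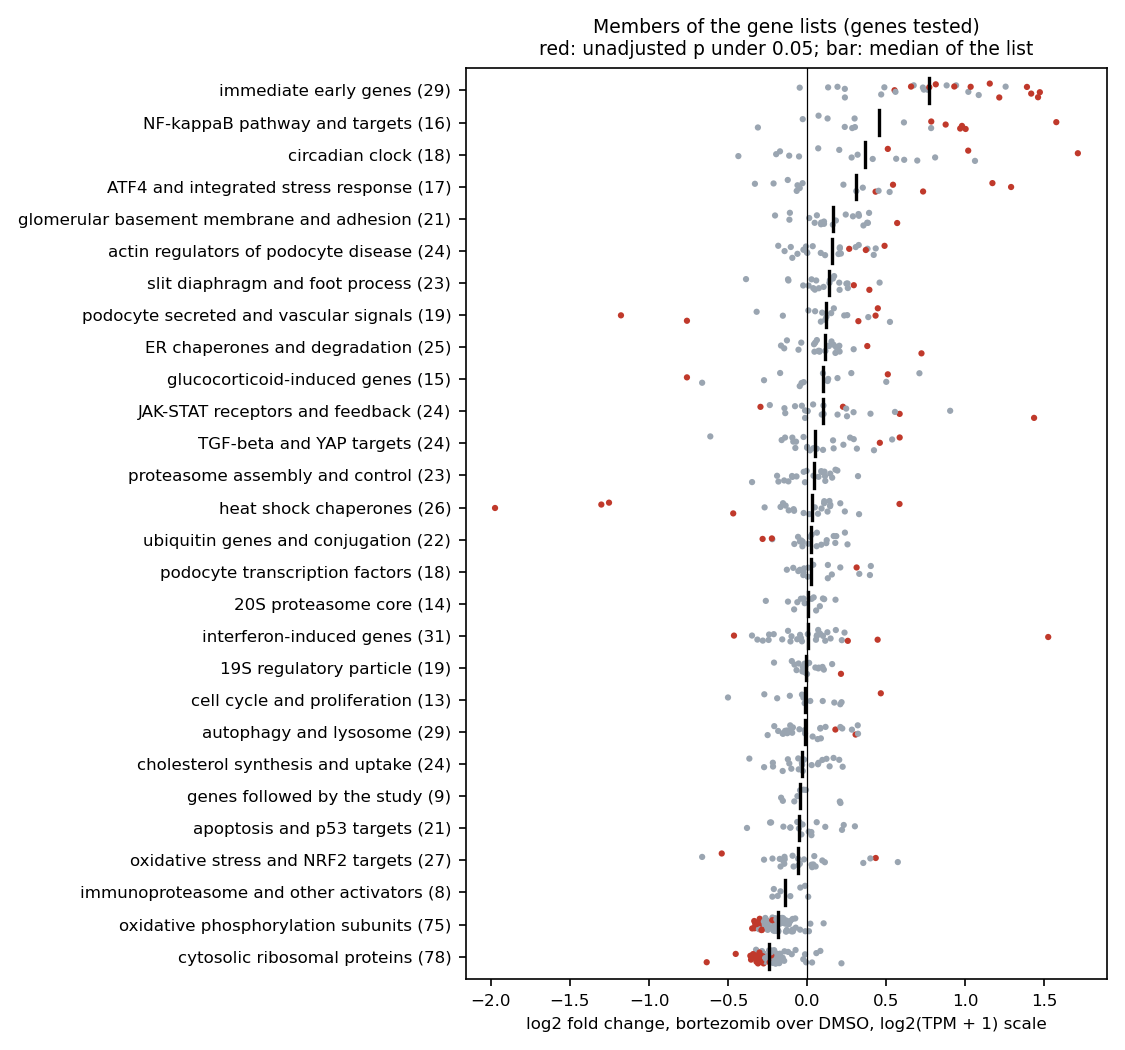
Each point is 1 tested member of a gene list, with its log2 fold change of bortezomib over DMSO on the x axis. Red points have an unadjusted p under 0.05 in limma, the black bar is the median of the list, and the number of tested members stands in brackets, with immediate early genes at the top (0.77) and ribosomal proteins at the bottom (-0.24).

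*Lmx1b* itself (chromosome 2 of GRCm39 from 33450977 to 33531093) ranged from 44.8 to 89.7 TPM (median 71.5) after DMSO and from 54.8 to 125 TPM (median 88.1) after bortezomib (log2 fold change 0.33, standard error 0.18, 95% interval -0.06 to 0.72). These values count reads from the whole gene and from both alleles, and the deletion cannot be checked with them. The difference was 0.10 without the outlying pair of mice. Among 18 podocyte transcription factors 11 were higher with a median of 0.02, and *Wt1*, which overlaps its antisense gene *Wt1os*, differed by 0.40 with an unadjusted p of 0.0503 in limma.

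The filtration barrier genes had small differences. Of 23 genes of the slit diaphragm and foot process 19 were higher with a median of 0.14, and *Ezr*, which links the podocalyxin complex to actin, and *Ptpro* were called higher (0.29 and 0.39). Without the outlying pair of mice 14 of 23 were higher, the median was 0.04 and 0 were called. *Nphs1* (nephrin) differed by 0.06, *Synpo* (synaptopodin) by -0.12 and *Podxl* (podocalyxin) by 0.16, with none below an unadjusted p of 0.05. *Podxl* ranged from 5581 to 8991 TPM (median 7322) after DMSO and from 6540.1 to 9338 TPM (median 8093) after bortezomib, and the groups overlapped. In the basement membrane list 18 of 21 were higher with a median of 0.16, and *Col4a3*, a chain of the adult collagen IV network of the glomerulus, ranged from 267 to 593 TPM (median 442) and from 490.4 to 834 TPM (median 656) (log2 fold change 0.57, standard error 0.18). It overlaps *Col4a4*. Its partner chains *Col4a4* and *Col4a5* had 0.11 and 0.18. The gene lists of the slit diaphragm, the basement membrane and actin regulators (16 of 24 higher, median 0.16) have long members, with median lengths of 6698, 6718 and 6146.5 bases, and after removal of the length trend their medians were 0.09, 0.13 and 0.09. Without the pair of mice the medians of the basement membrane and actin lists were 0.12 and 0.10, and 1 actin regulator was called higher in place of 3.

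Among secreted factors *Bmp7*, *Vegfa* and *Dach1* were called higher with 0.32, 0.43 and 0.45, and *Ptgds*, for lipocalin-type prostaglandin D synthase, and *Angptl4* lower with -1.18 and -0.76. Without the pair of mice 1 gene of this list was called higher and 2 lower. *Dach1* is a nuclear regulator rather than a secreted protein. In the exact permutation test *Vegfa* and *Ptgds* had p = 0.0909 and 0.0779. *Vegfa*, through which podocytes maintain the glomerular endothelium, ranged from 739.8 to 1447 TPM (median 1218) and from 956 to 2378 TPM (median 1504). *Ccn2* (CTGF) led the TGF-beta and YAP targets, of which 14 of 24 were higher, with 792 to 1789.9 TPM (median 1482) and 1608 to 2055 TPM (median 1815), and 2 of them were called higher with all mice and 0 without the pair. None of the 9 tested genes that the study followed as examples of its expression patterns was called in either direction, and without the pair of mice 1 was called higher. That list was chosen by the study on these samples. Their log2 fold changes ran from -0.16 (*Cd63*) to 0.21 (*Serping1*), with *Cldn5* at -0.15, *B2m* at -0.04, *Cdkn1c* at -0.02, *Flna* at 0.21, *Mustn1* at -0.08, *Pak1* at -0.06 and *Tagln* at -0.01. *Lgals3* did not pass the filter, being listed at 0 to 36.9 TPM after DMSO and 0.421 to 11.8 TPM after bortezomib. Genes of cholesterol synthesis and uptake were higher in 9 of 24, with none called and *Ebp*, a sterol isomerase, at -0.22.

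The lowest log2 fold changes among the called genes belonged, beside *Hspa1b*, to genes known mainly from other cells. *Trf* (transferrin), *Lyz2* (lysozyme of macrophages and neutrophils), *Kap* (an androgen-regulated protein of the proximal tubule) and *Chi3l1* had values of -2.53, -2.49, -2.43 and -2.22. *Lyz2* ranged from 1.49 to 285 TPM (median 12.2) after DMSO and from 0 to 5.06 TPM (median 1.59) after bortezomib, and *Kap* from 4.31 to 208 TPM (median 61.8) and from 0 to 62.8 TPM (median 5.16). The exact permutation test gave p = 0.0476 for *Trf*, 0.0714 for *Lyz2*, 0.0779 for *Kap* and 0.0563 for *Chi3l1*. *Lyz2* and *Kap* met the filter only through the DMSO group, where they are high. Their direction is therefore partly set by the filter, and their p is not read as a result. The groups overlapped in each of the 4 genes, and the highest *Trf*, *Lyz2* and *Chi3l1* values were those of DMSO mouse 1. Fewer cells of a type and less RNA per cell cannot be told apart in such bulk samples.

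Of 24 leukocyte markers 4 passed the filter (*Csf1r*, *Lyz2*, *Cd74* and *H2-Eb1*). For 3 of these (*Lyz2*, *Cd74*, *H2-Eb1*) the filter was met only by the DMSO group, where they are high, so their direction is partly set by the filter and is not read as a result. The summed level of the whole list ranged from 10.6 to 648 TPM (median 43.7) after DMSO and from 4.82 to 34.1 TPM (median 11.6) after bortezomib. *Ptprc*, which marks all leukocytes, stayed below 1 TPM in every mouse, as did *Cd3e*, *Cd79a* and *Itgam*. Tubule markers summed to 2202 to 8789 TPM after DMSO and 1638 to 7732 TPM after bortezomib, and for 3 of the 6 that passed the filter only the DMSO group met it. Endothelial markers summed to 1351 to 2096 TPM and 1259 to 1842 TPM, and no erythroid marker passed the filter. The endothelial list includes *Cldn5*, whose protein the study describes in normal podocytes. Its sum is therefore not a measure of endothelial cells alone. The sums of the mesangial and smooth muscle list were 32.2 to 230.5 TPM and 29.7 to 69.6 TPM, and those of the parietal cell list 117.5 to 286 TPM and 109 to 158 TPM. A sort on green fluorescence should leave out cells that had no active Cre. The part of these cells in the other lists was not tested.

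The same drug was given to mice of the knock-in lines, which share neither treated nor solvent mice with the controls. In these lines, the study reports, bortezomib also increased the number of Lmx1b-positive podocytes and reduced proteinuria. Their response may thus hold this effect beside that of the drug on control podocytes, and its part was not tested. In Lmx1b H77L/lox mice (6 with bortezomib, 6 with DMSO), 20% of the genes tested had an unadjusted p under 0.05, and in Lmx1b C118F/lox mice (5 and 6) 5.86%. Of the 872 genes called in the controls and tested in H77L mice, 307 (35.2%) had the same direction there, against 41.7% of all genes. A total of 55 of the 872 were called in the same and 152 in the opposite direction. Over all 10309 genes tested in both, 668 were called in H77L mice in the same and 1319 in the opposite direction. In C118F mice 610 of 867 (70.4%) had the same direction, against 61% of all genes, 36 being called in the same and 13 in the opposite direction. Over all 10276 genes tested in both, these counts were 319 and 222.

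The lists that led in the controls had other values in H77L mice. Immediate early genes were higher in 9 of 31 with a median of -0.16 there and in 24 of 31 with 0.16 in C118F mice. Ribosomal protein genes had medians of 0.18 and -0.05, and oxidative phosphorylation genes of 0.24 and 0.03, the latter higher in 75 of 76 genes in H77L mice. All 14 genes of the 20S core were higher in H77L mice, 12 of them called, with a median of 0.22, and 5 of 14 in C118F mice with -0.01. *Hspa1b*, *Hspa1a* and *Dnajb1* had log2 fold changes of 2.34, 2.16 and 2.11 in H77L mice and of -0.91, -0.47 and -0.34 in C118F mice. The difference of the *Hspa1b* response between H77L mice and the controls had an adjusted p of 0.0814 in limma. *Socs3* had -0.84 and 0.26, *Bhlhe40* -1.03 and 0.16, and *Gas1* 1.09 and 0.92, with 1.00 for the last in the controls. Interferon-induced genes had medians of -0.42 and -1.24, against 0.00 in the controls.

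**Figure D5:**
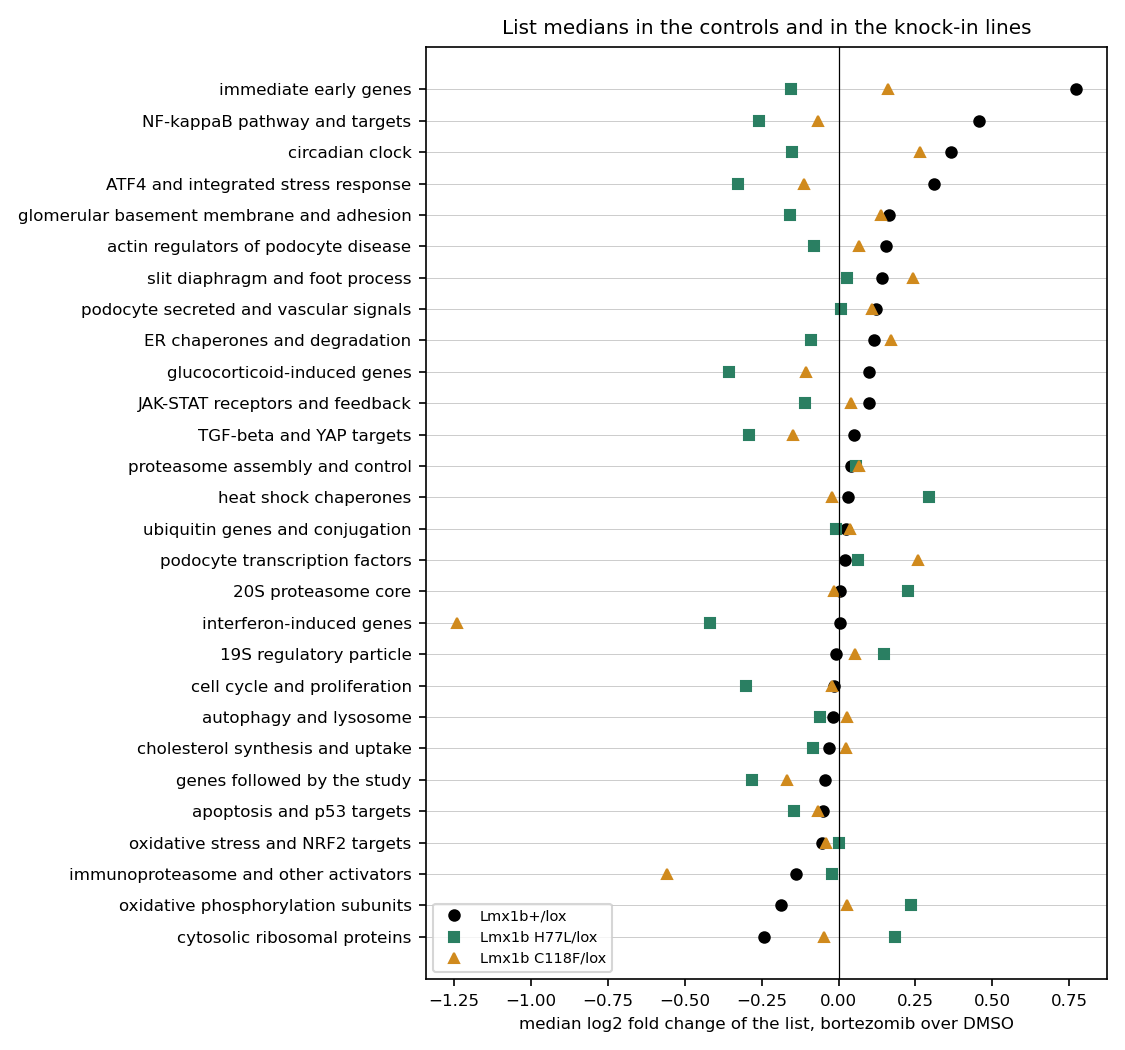
Median log2 fold change of each gene list under bortezomib, in Lmx1b+/lox mice (black circles) and in the H77L/lox (green squares) and C118F/lox (orange triangles) lines. The lists are ordered by the value in the controls, from 0.77 at the top to -0.24 at the bottom, and the green squares of the lowest pair of lists lie at 0.24 and 0.18.

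The differences between these responses were tested directly. For H77L against the controls, 0% of 11163 genes had an adjusted p under 0.05 in limma, with a lowest value of 0.0564, and 18.2% an unadjusted p under 0.05. Among these were 63 of the 76 listed oxidative phosphorylation, 59 of the 83 ribosomal protein and 12 of the 32 immediate early genes. With 1 mouse left out the count past the adjusted threshold was at most 4 except for 3 mice, being 275 without bortezomib mouse 1 of the controls, 199 without DMSO mouse 5 of the controls, and 18 without DMSO mouse 5 of the H77L line. For C118F, 0% of 11197 genes passed the adjusted threshold, and 5% had an unadjusted p under 0.05. In the same 3 lists these were 4, 2 and 2 genes. The median log2 fold changes of the shortest and the longest genes were 0.10 and -0.04 in H77L mice and -0.03 and 0.18 in C118F mice.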

How the data were processed

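RNA of podocytes sorted from single mice was enriched for poly(A), sequenced from 1 end and, per the submitters' processing notes, trimmed with Trim Galore 0.6.7, aligned to GRCm39 with STAR and counted with featureCounts 1.6.3. The authors deposited TPM values, which sum to 1000000 in each mouse. Picard is also listed there. Whether counting used strand is not given in the sources used here. The control label was taken as Lmx1b+/lox. Values were transformed to log2(TPM + 1), and genes that exceeded 1 TPM in all mice of either group were fitted with limma 3.58.1 (lmFit, eBayes with trend; R 4.3.3) with Benjamini-Hochberg adjustment. An exact permutation test over 924 splits was added for single genes, and Python 3.11.15 was used for summaries. For 91.2% of 23943 expressed genes whole reads (within 0.02) were recovered, which gave the depth, gene lengths and a voom fit. Depths are therefore estimates. The limma p-values set the difference between groups against the spread between mice, which the fit moderates across genes. Gene positions are from GENCODE vM39, promoters from RefSeq.

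The mice, the 28 gene lists and the rule for named genes were chosen with earlier results of these data known. Named were the 10 genes with the lowest p in each direction, the 5 with the highest and the 5 with the lowest fold change among those called, the member of each list with the lowest p and a fixed set of proteasome, chaperone and podocyte genes and of genes followed by the study. All other genes named were chosen after their values had been seen. Of the list genes 4 were not found in the table and 13 stood in more than 1 list. The test was checked on simulated data with noise drawn independently for each gene and mouse. That setting lacks the differences between mice that many genes shared here. The animal numbers carry no pairing.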

Additional observations from a re-analysis of the deposited data

Results flagged for a closer look

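Single mice lay far from the other 5 of their group in 29 of 194 sets of values examined, judged by the gap to the next mouse relative to the range of the group. About 1 in 20 such sets, or 9.70 of them, would stand out by chance if the values were normally distributed and the sets independent. Nearly all of the mice that stood apart did so at the high end, and many sets are genes chosen for extreme values in these same mice. The 29 sets are therefore not weighed against that number. DMSO mouse 1 accounted for 11 and bortezomib mouse 6 for 11.

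DMSO mouse 1 had the highest level of several genes and marker sums, in TPM against the next highest DMSO-treated mouse. The values were 285 against 58.3 for *Lyz2*, 352 against 49.0 for *Chi3l1*, 207 against 67.9 for *Trf*, 267 against 136 for *Serping1*, 738 against 199 for *Ptgds*, 779 against 528 for *Rplp0* and 0.516 against 0.187 for *Mki67*. Its summed markers were 648 against 138 TPM for leukocytes, 230.5 against 63.8 TPM for mesangial and smooth muscle cells, 286 against 174 TPM for parietal cells and 93.5 against 2.65 TPM for erythroid cells.

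Bortezomib mouse 6 had the lowest mean correlation with the other mice (0.952 against 0.967) and the highest level of stress and immediate early genes. In TPM against the next highest bortezomib-treated mouse these were 213 against 33.6 for *Klf4*, 222 against 73.5 for *Cebpd*, 317 against 129 for *Bhlhe40*, 1147 against 384 for *Ppp1r15a*, 697 against 237 for *Atf4*, 9179.6 against 3571 for *Atf3*, 1941 against 1363 for *Sqstm1*, 179 against 135 for *Tax1bp1*, 229.5 against 104 for *Cry2* and 26.9 against 8.93 for *Rel*.

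The other mice apart from their group were seen in 1 or 2 sets each. *Gm27003* stood at 1.79 against 0.701 TPM in DMSO mouse 2 and *Gm21057* at 4.77 against 2.19 TPM in DMSO mouse 3. Among bortezomib-treated mice *Kap* stood at 62.8 against 12.7 TPM in mouse 2, *Chi3l1* at 3.51 against 1.92 TPM and *Ptgds* at 157 against 70.4 TPM in mouse 1, and *Mki67* at 0.0156 against 0 TPM and the erythroid sum at 16.2 against 6.14 TPM in mouse 3. The cause of these differences was not tested.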

How the results depend on the processing

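The count of genes with an adjusted p under 0.05 was 0 under every alternative that kept all 12 mice, including voom on recovered reads (927 at an unadjusted p under 0.05), and between 0 and 1 with 1 mouse left out, the 1 gene (*Gm27003*) arising without DMSO mouse 2. The count at an unadjusted p under 0.05 was 923. It was 519 (244 higher, 275 lower) with the animal number as a covariate and 452 (243 and 209) with the level of *Xist*. Without DMSO mouse 1 and bortezomib mouse 6, an alternative chosen after seeing the data, it was 479 (244 and 235). With 1 mouse left out it lay between 637 and 1423, with 313 to 752 higher, lowest without bortezomib mouse 6 and highest without bortezomib mouse 1 (746 without DMSO mouse 5), and 305 to 671 lower, highest without bortezomib mouse 1. The number of genes whose groups did not overlap was 26, 36 to 106 with 1 mouse left out and 64 without the pair of mice, as fewer mice separate more easily. Without a filter on low values 18638 of 21246 genes had a 95% interval inside 2-fold. The count for the difference between H77L mice and the controls ranged from 0 to 275 with 1 mouse left out, and that for C118F mice from 0 to 0. The causes were not tested. Genes of low level depended on the pseudocount, the log2 fold change of *Gm27003* being 2.17 with 0.1 and 0.57 with 5. List medians that lay near 0, such as those of the proteasome, interferon and heat shock lists, had either sign among the alternatives, whereas those of immediate early (lowest 0.39), ribosomal protein and oxidative phosphorylation genes kept theirs. Median-of-ratios scaling moved the median of all genes to 0.00. No paired analysis was possible because the animal numbers do not pair the groups.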
